A study of Danio rerio with 40 samples.

Results

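Guidance genes encode secreted or membrane-bound cues and their receptors that steer growing axons, blood vessels and migrating cells. They were described here in single cells of the zebrafish epicardium, the outermost layer of the heart wall. The members were chosen by symbol alone: all rows of the count table whose gene symbol belongs to the semaphorins, plexins, neuropilins, ephrins A and B, Eph receptors A and B, Slits, Robos, netrins or Unc5 receptors. This gave 84 of 33737 genes. One of them, UNC50, was taken by its spelling and is no netrin receptor. The other 83 are 46 ligand genes and 37 receptor genes. The RefSeq gene table of assembly GRCz12tu lists 102 symbols under the same rule, and genes such as nrp1a, plxna1a and plxna1b, for which no row had a symbol, are not analysed here.

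The samples were 40 single cells of 1 group, sorted from ventricles of 6 month old adult zebrafish of the EK strain. All fish carried the tcf21:nucEGFP reporter, which puts green fluorescent protein in the nucleus of cells that use the promoter of tcf21, a transcription factor gene of the epicardium. Cells positive for the reporter and negative for propidium iodide, a stain of dead cells, were captured on the Fluidigm C1 device, 1 library per cell. No animal, injury, treatment or second tissue was labelled, so the 40 cells count as 1 sample, no test was run, and a standard deviation describes the spread between these cells.

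As background, class 3 semaphorins are secreted and bind neuropilins, which signal through class A plexins, and most other semaphorins sit in the membrane and bind plexins directly. Ephrins are membrane-bound ligands of the Eph receptor tyrosine kinases, and both sides can signal when cells touch. Slits are secreted ligands of Robo receptors, and netrins bind DCC, neogenin and Unc5 receptors. In the heart these families are known from the development of vessels, valves and the outflow tract, and in mouse Sema3d marks some cells of the proepicardium, the source of the epicardium.

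The median depth was 3008672 expected reads, with 340293 in the shallowest cell and 5695770 in the deepest. Genes with 5 or more expected reads, the level called detected here, numbered 161 to 10792 per cell with a median of 2153.5. Cell 40 had 10792 and the next highest 4119. TCF21 was detected in 37 of 40 cells. The 3 others were cells 7, 33 and 11, with 2, 3 and 2 TCF21 reads. Transcripts of a list of 12 cardiomyocyte genes made up 17.02% of the library of cell 7 and 16.7% of that of cell 33, against 0.922% or less in every other cell, and those of 13 macrophage genes made up 2.43% in cell 11, against 0.0820% or less in the others. The neural and glial list never exceeded 0.00611% of reads, with 7 of its 9 genes detected in no cell. Levels are given in CPM, expected reads per 1000000 expected reads of the cell. CPM is not corrected for transcript length, which was not given, so a level is compared between cells for 1 gene, and any comparison between genes is of reads or CPM uncorrected for length. At the median depth 5 reads correspond to 1.66 CPM, at the lowest depth to 14.7 CPM.

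Most guidance genes were detected in some cell, and most of these in few cells. Of the 84 members, 55 (65.5%) were detected in at least 1 cell and 29 (34.5%) in none, which for each of the 29 allows a share of up to 7.5% of cells. Over all genes, 44.9% were detected in at least 1 cell, and over the 21939 genes with a symbol 52.5%. Of the 29, 22 had no read in any cell (26.2% of members, beside 47.5% of all genes and 40.3% of genes with a symbol). Detection in at least 10% of cells was met by 23 members (27.4%), beside 18.7% of all genes and 22.8% of genes with a symbol. Detection in at least 50% of cells was met by 7 members (8.33%), beside 3.49% of all genes and 4.40% of genes with a symbol. The other 48 detected members lay below that, 16 of them in 4 to 19 cells and 32 in 1 to 3 cells. Over all genes, 15147 were detected in at least 1 cell and 6296 in at least 10% of cells. Over genes with a symbol these were 11519 and 5007. Detection in few cells was thus common in the whole table and is not particular to the members. The share in just 1 cell was not computed over all genes. For 14 members there was just 1 detecting cell, and for 9 of these 14 it was cell 40, so that 38 members were detected in no cell without it.

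**Figure D1:**
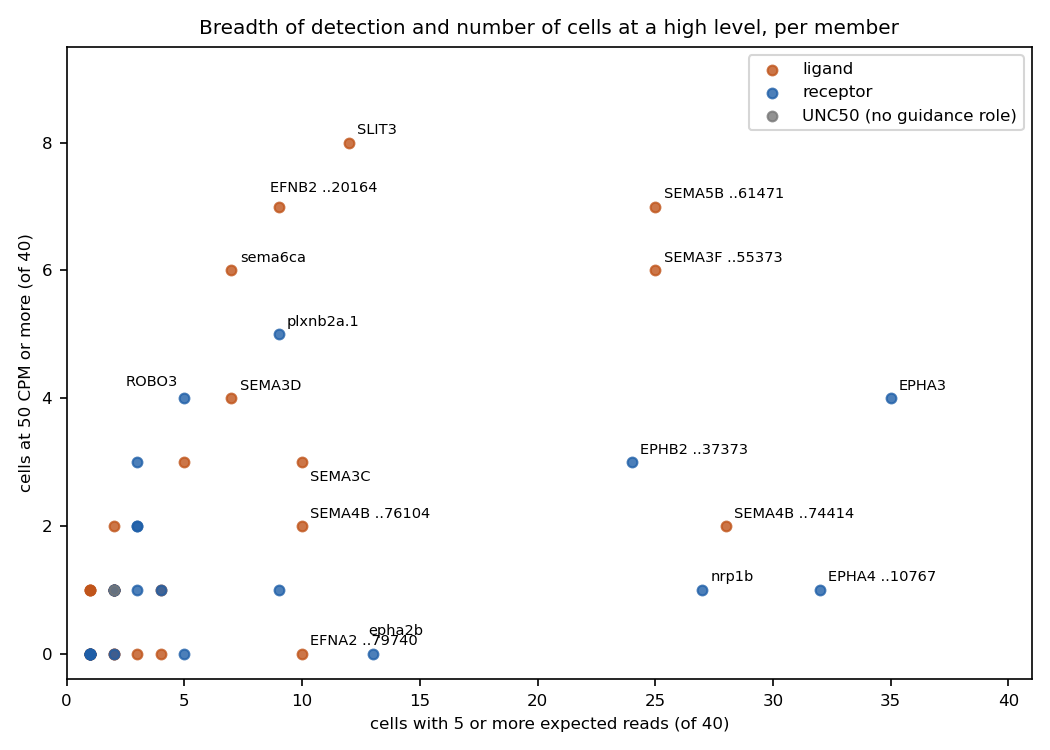
Each point is 1 of the 55 detected members, with the number of cells (of 40) at 5 or more expected reads on the horizontal axis and the number at 50 CPM or more on the vertical axis; points can coincide, and the last 5 digits of the gene identifier mark copies of 1 symbol. EPHA3 and EPHA4 were detected in 35 and 32 cells but reached 50 CPM in 4 and 1, while SLIT3 was detected in 12 cells and reached 50 CPM in 8.

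High levels were met in fewer cells. At 50 CPM, 36 members (42.9%) were found in at least 1 cell, beside 25.5% of all genes and 32.1% of genes with a symbol. In at least 50% of cells there were 0, beside 0.943% of all genes and 1.25% of genes with a symbol. In at least 10% of cells there were 9 (10.7%), beside 7.53% of all genes and 9.85% of genes with a symbol. The count of 9 is thus near the share of genes with a symbol. The 9 were 6 ligand genes, SLIT3, EFNB2, SEMA5B, SEMA3F, sema6ca and SEMA3D, and 3 receptor genes, plxnb2a.1, EPHA3 and ROBO3. The 7 members of broadest detection were the receptor genes EPHA3, EPHA4, nrp1b and EPHB2 and the ligand genes SEMA4B, SEMA3F and SEMA5B. SEMA3F, SEMA5B and EPHA3 belong to both sets. Of the cells where a member of these sets reached 50 CPM, TCF21 also did in 7 of 8 for SLIT3 and 4 of 5 for plxnb2a.1. It did in 2 of 3 for EPHB2 and 0 of 1 for EPHA4. For the other members of these sets it did in all such cells, and it did in 33 of all 40 cells (82.5%). The other 19 of the 55 detected members never reached 50 CPM, among them epha2b and EFNA2, detected in 13 and 10 cells. Among the 12 members detected in 10 or more cells, a median of 11.96% of the detecting cells reached 50 CPM, beside 40% over the 2545 genes of the table detected in 10 or more cells, neither corrected for length. The median number of reads in detecting cells was 26.3 for these members, beside 93.4 over those genes.

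In cells 7, 11 and 33 TCF21 was below the detection level. Of the 7 broad members, 4 were detected in cell 7, 5 in cell 11 and 0 in cell 33. EPHA3 had 46.6 CPM in cell 7 and 6.45 CPM in cell 11, against a median of 11.4 CPM over all cells. SEMA5B had 23.4 CPM in cell 7 and 6.96 CPM in cell 11, against a median of 5.99 CPM. Both cells lay within the range of the cells with TCF21 detected for these genes, but for EPHA3 only cells 22, 15, 36 and 16 exceeded cell 7. The other broad members detected in cell 7 were SEMA4B (ENSDARG00000074414) at 28.7 CPM and EPHA4 at 5.95 CPM. Their medians over all cells were 6.52 and 5.42 CPM. At 50 CPM, none of the 7 broad members and none of the 9 that reached this level in at least 4 cells did so in cells 7, 11 or 33. Cell 7 had 2 other members at that level, and 9 of all 40 cells had none. Where the low reads of the broad members came from was not tested.

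**Figure D2:**
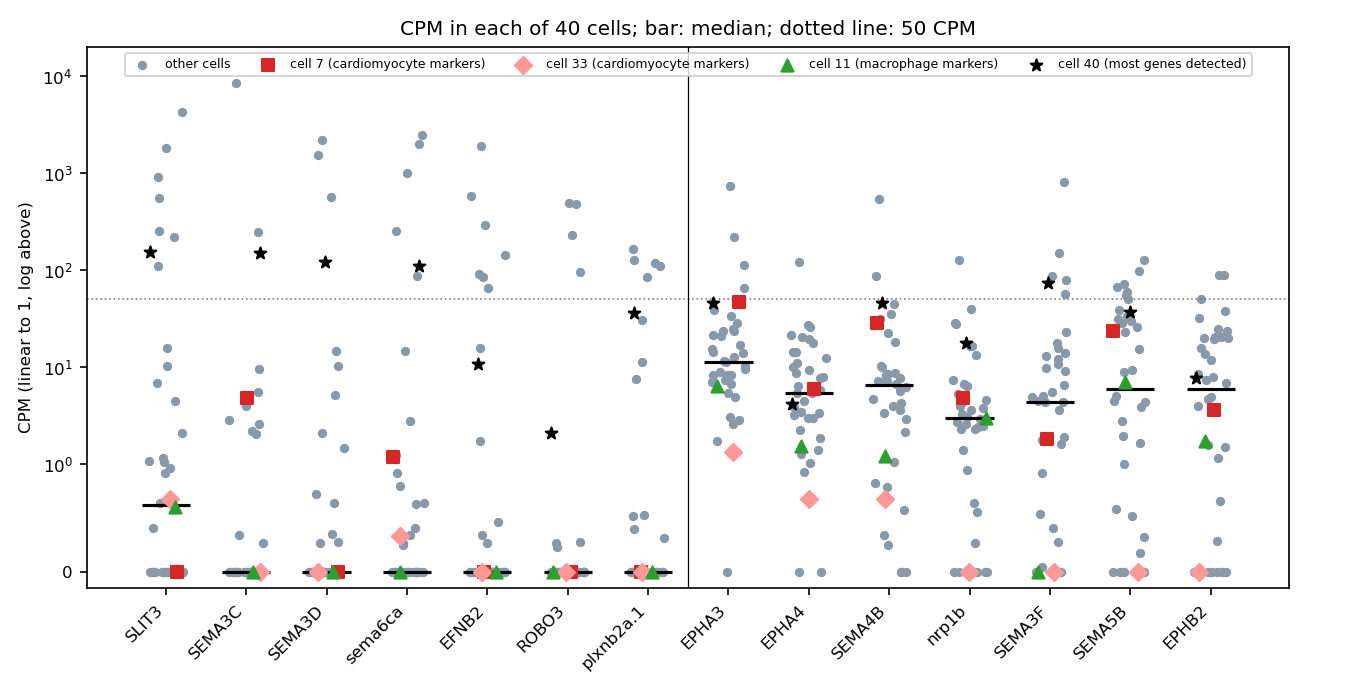
CPM of 14 members in each of the 40 cells, on an axis that is linear up to 1 CPM and logarithmic above, with the median as a bar and 50 CPM as a dotted line; cells 7, 33, 11 and 40 have their own symbols. The 7 members on the left stand at or near 0 in most cells and above 100 CPM in a few, and the 7 on the right, detected in at least 24 cells, have medians of 3.01 to 11.4 CPM, with cells 7 and 11 among the other cells for EPHA3 and SEMA5B.

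Among the 12 class 3 semaphorin genes, which encode the secreted repellents and attractants of the family, 8 were detected and 3 in at least 10% of cells. SEMA3C (ENSDARG00000034300), whose mouse counterpart is needed for septation of the outflow tract, had a lowest and a median value of 0 CPM and a highest of 8566 CPM. Its reads came from cell 27, with cells 10 and 40 next at 247 and 152 CPM, and 95.2% of its summed CPM lay in cell 27. Its mean was 225 ± 1353 CPM over 40 cells (SD) and 11.1 CPM without cell 27. SEMA3D (ENSDARG00000017369) also had a median of 0 CPM and was detected in 7 cells, with 2173 CPM in cell 19, 1525 in cell 15, 574 in cell 24 and 121 in cell 40. The remaining 36 cells lay at 14.7 CPM or below, so SEMA3D had 4 cells at a high level and a wide gap beneath them. SEMA3F (ENSDARG00000055373) was detected in 25 cells (62.5%, Wilson 95% interval 47.0 to 75.8%), with a lowest value of 0, a median of 4.41 and a highest of 814 CPM in cell 35. Cells 28, 2, 24, 40 and 18 followed at 149, 87.2, 78.4, 74.1 and 56.3 CPM. The second SEMA3F row (ENSDARG00000011163) was detected in cell 16 alone, at 256 CPM. SEMA3B reached 145 CPM in cell 2, and SEMA3A, SEMA3E and SEMA3G stayed below 50 CPM in every cell, with 6.14, 37.0 and 42.3 CPM at most. sema3aa, sema3ga, sema3gb and sema3h were detected in no cell.

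Class 4 semaphorins are membrane ligands, and 5 of 8 genes were detected. The 2 SEMA4B rows were the ones in most cells. SEMA4B (ENSDARG00000074414) was detected in 28 cells (70.0%, 54.6 to 81.9%), from 0 to 548 CPM with a median of 6.52. Cells 13 and 17, at 548 and 86.3 CPM, were its 2 cells above 50 CPM. SEMA4B (ENSDARG00000076104) was detected in 10 cells, with a median of 0.58 CPM, and was highest in other cells, 22 and 19, at 762 and 89.5 CPM. sema4ab was detected in 5 cells and reached 954 CPM in cell 13, 268 in cell 15 and 64.9 in cell 40. The same cell 13 was thus the highest of both sema4ab and the first SEMA4B row. sema4aa and SEMA4C were detected in cell 40 alone, at 33.9 and 1.76 CPM, and sema4e and both SEMA4G rows in no cell.

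Of the class 5 genes, which encode membrane semaphorins with thrombospondin repeats, SEMA5B (ENSDARG00000061471) was detected in 25 cells with a median of 5.99 CPM. Its high values were evenly spread, with 7 cells at 50.7 to 126 CPM (cells 9, 12, 18, 21, 31, 38 and 39). The highest cell held 14.5% of its summed CPM, beside a median of 27.6% over the 2545 genes detected in 10 or more cells. This was the lowest share among the 12 members detected in 10 or more cells, whose median was 41.5%. SEMA5A was detected in 2 cells and reached 58.3 CPM in cell 7, with 0 CPM in cell 33, the other library with many cardiomyocyte transcripts. The second SEMA5B row (ENSDARG00000075648) had 0 reads. In class 6, sema6ca (ENSDARG00000002748) was detected in 7 cells and had 2459 CPM in cell 18, 1995 in cell 2, 1013 in cell 22, 254 in cell 8, 109 in cell 40 and 86.3 in cell 26. The median over 40 cells was 0, and 33 cells lay below the detection level. sema6bb reached 620.4 CPM in cell 35, SEMA6C 54.1 CPM in cell 38 and SEMA6D 42.5 CPM in cell 29. sema7a, the single class 7 gene, and sema6ba were detected in no cell.

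Neuropilins, the binding partners of class 3 semaphorins and co-receptors of VEGF, were represented by 3 rows. nrp1b (ENSDARG00000027290) was detected in 27 cells (67.5%, 52.0 to 79.9%), with a lowest value of 0, a median of 3.01 and a highest of 128 CPM in cell 38, its only cell above 50 CPM. NRP2 (ENSDARG00000096546) was sparse, with 539 CPM in cell 9, 228 in cell 3, 34.9 in cell 40 and 0 in the other 37 cells. The second NRP2 row (ENSDARG00000038446) was detected in no cell.

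Plexins, the signalling receptors of semaphorins, were detected in few cells each, and 5 of the 12 genes in none. plxnb2a.1 (ENSDARG00000003811), a class B plexin, was detected in 9 cells. Its 5 cells above 50 CPM were cells 18, 3, 14, 25 and 21, at 167, 127, 119, 112 and 85.8 CPM. PLXNA3, whose mouse counterpart carries Sema3F signals with neuropilin 2, was also detected in 9 cells but reached 50 CPM in 1, cell 15 with 530.4 CPM. PLXNA2 had 342 CPM in cell 13 and 199 in cell 3, and plxnb2b 263 CPM in cell 16. PLXNA4, plxnb3 and the PLXNB1 row ENSDARG00000075821 were detected in cell 40 alone, and the other PLXNB1 row, plxnb2a.2 and plxnb2a.3 in no cell. plxnd1, a receptor known from blood vessel endothelium, and PLXNC1 had 0 reads in all 40 cells.

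Among the ephrins, the ligands of Eph receptors, EFNB2 (ENSDARG00000020164), a gene known as a marker of arterial endothelium, was detected in 9 of 40 cells (22.5%, 12.3 to 37.5%). It had 1917 CPM in cell 6, 585 in cell 35, 295 in cell 36, 143 in cell 10, 90.6 in cell 28, 84.8 in cell 15 and 66.0 in cell 5, with a median of 0. All 7 cells had TCF21 at 50 CPM or more, as did 33 of all 40 cells (82.5%), and the list of 8 endothelial genes held at most 0.162% of reads in any cell, with 5 of the 8 detected in no cell. The highest endothelial shares, 0.162% in cell 26 and 0.0405% in cell 35, were in cells with EFNB2 detected, at 15.6 and 585 CPM, and the share was 0.000111% in cell 6, the highest for EFNB2. The part of endothelial transcripts in these values was not tested. The other EFNB2 row (ENSDARG00000074050) had 139.5 CPM in cell 18 and 0 elsewhere. EFNB1 reached 101 CPM in cell 32, and EFNB3 was detected in cell 38 alone, at 1.74 CPM. Of the ephrin A genes, EFNA2 (ENSDARG00000079740) was detected in 10 cells at 26.04 CPM or less, and its second row (ENSDARG00000031372) in none. EFNA1 (ENSDARG00000018787) reached 196 CPM in cell 15 and 118 in cell 40, and efna4 166 CPM in cell 35. efna3a, in 2 cells, and EFNA5, in 1, reached 38.1 and 7.78 CPM.

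Of the Eph receptor tyrosine kinases, EPHA3 (ENSDARG00000039373), needed in mouse for the endocardial cushions of the valves, was the member detected in most cells, 35 of 40 (87.5%, 73.9 to 94.5%). It ranged from 0 to 744 CPM with a median of 11.4. Cells 22, 15, 36 and 16, at 744, 218, 113 and 64.7 CPM, stood above 50 CPM, and the mean was 41.4 CPM, or 23.3 without cell 22. EPHA4 (ENSDARG00000010767) was detected in 32 cells (80.0%, 65.2 to 89.5%), from 0 to 123 CPM with a median of 5.42, and only cell 29 passed 50 CPM. epha2b was detected in 13 cells, always at 15.2 CPM or less. epha7 (683 CPM in cell 19) and epha4b (134 CPM in cell 18) were each high in 1 cell, the second EPHA4 row (ENSDARG00000054454) reached 19.2 CPM in cell 23, and epha2a and EPHA6 were detected in none.

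The EphB genes, receptors of ephrin B ligands, had EPHB2 (ENSDARG00000037373) in 24 cells (60.0%, 44.6 to 73.7%), from 0 to 88.3 CPM with a median of 5.92. Cells 13 and 2 shared the highest value within 0.2 CPM, and cell 29 had 50.5 CPM. ephb4b, the receptor of ephrin B2 in venous endothelium, had 576 CPM in cell 2, 83.9 in cell 40 and 62.1 in cell 8. ephb6, a family member without kinase activity, had 402 CPM in cell 7 and at most 2.38 CPM in any other cell. Its mean was 10.4 CPM over 40 cells and 0.328 CPM without cell 7. In cell 33, the other library with many cardiomyocyte transcripts, ephb6 was at 0 CPM. EPHB3 was detected in cell 40 alone, at 23.5 CPM, and EPHB1 and the second EPHB2 row (ENSDARG00000021539) in no cell.

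SLIT3 (ENSDARG00000034268), a secreted ligand of Robo receptors that is needed in mouse for the diaphragm and the heart, was the ligand with most cells at a high level. It was detected in 12 cells (30%, 18.1 to 45.4%), with a lowest value of 0, a median of 0.62 and a highest of 4253 CPM. The 8 cells above 50 CPM were cell 25 with 4253, cell 31 with 1838, cell 28 with 917, cell 15 with 549, cell 5 with 256, cell 26 with 222, cell 40 with 154 and cell 22 with 110.3 CPM. Of these 8, 7 had TCF21 at 50 CPM or more, beside 33 of all 40 cells, and cell 25 had 44.9 CPM. Its mean was 209 ± 734 CPM (SD over 40 cells), and 105 CPM without cell 25. SLIT1 had 109.6 CPM in cell 18 and was detected in 3 further cells at 23.1 CPM or less, and SLIT2 had 0 reads. The Robo genes were high in 1 to 4 cells each or in none. ROBO3 had 494 CPM in cell 15, 486 in cell 6, 230.4 in cell 16 and 96.3 in cell 38, and ROBO2 had 1613 CPM in cell 27 and 19.4 in cell 15. robo4, known from endothelium, was detected in cell 40 alone at 19.3 CPM, and ROBO1 in no cell. ALDH1A2, the gene of a retinoic acid synthesis enzyme known from the epicardium, had 3940, 2583 and 433 CPM in cells 15, 25 and 40. These were 3 of the 8 cells with high SLIT3. ALDH1A2 was at 1.68 CPM or less in the other 5 and at 14.7 CPM or less in all cells without high SLIT3. podxl, also from a list of epicardial genes, had 236, 2465 and 768 CPM in cells 15, 25 and 40, and 3.72 CPM or less elsewhere. All 12 genes of this list together held 0.269% (cell 28) to 1.93% (cell 25) of reads in the 8 cells with high SLIT3. The median over 40 cells was 0.347%, and cells 5 and 28 lay below it. Cells 36, 8 and 27, without high SLIT3, had 1.23, 1.22 and 1.03%. Most genes of the list are not given singly here. TBX18, of the same list, had 54.8 to 1001 CPM in cells 5, 15, 25, 26, 28 and 40. It had 6.64 and 0.920 CPM in cells 22 and 31. Without high SLIT3, cells 4, 6, 8 and 27 had TBX18 at 1345, 1385, 2789 and 3325 CPM. Many further cells without high SLIT3 also had TBX18 above 54.8 CPM, so its level does not set the 8 cells apart. twist1a, a transcription factor gene of mesenchymal cells, had 107 to 648 CPM in 6 of the 8, cells 5, 22, 25, 26, 28 and 40, and 1.37 and 0.690 CPM in cells 15 and 31. It was also above 100 CPM in 4 cells without high SLIT3, cells 9, 10, 21 and 30. Across the 40 cells, SLIT3 CPM had a Spearman rho of 0.525 with genes detected and 0.524 with total reads. These were the highest such values among the 12 members detected in 10 or more cells. Cells 40 and 15 had the most genes detected, 10792 and 4119. How far this goes with the overlap of SLIT3, ALDH1A2 and podxl was not tested.

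No transcripts were detected for the 3 netrin rows that had a symbol. NTN1, ntn2 and ntn5 had 0 reads in all 40 cells. Of the Unc5 receptor genes, UNC5B was detected in 5 cells, with 32.8 CPM in cell 17 and 9.85 CPM or less in the rest, and UNC5C and both UNC5D rows in none. UNC50, which in the nematode acts in the trafficking of acetylcholine receptors, had 478 CPM in cell 9 and 21.97 in cell 40, and 0 elsewhere.

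**Figure D3:**
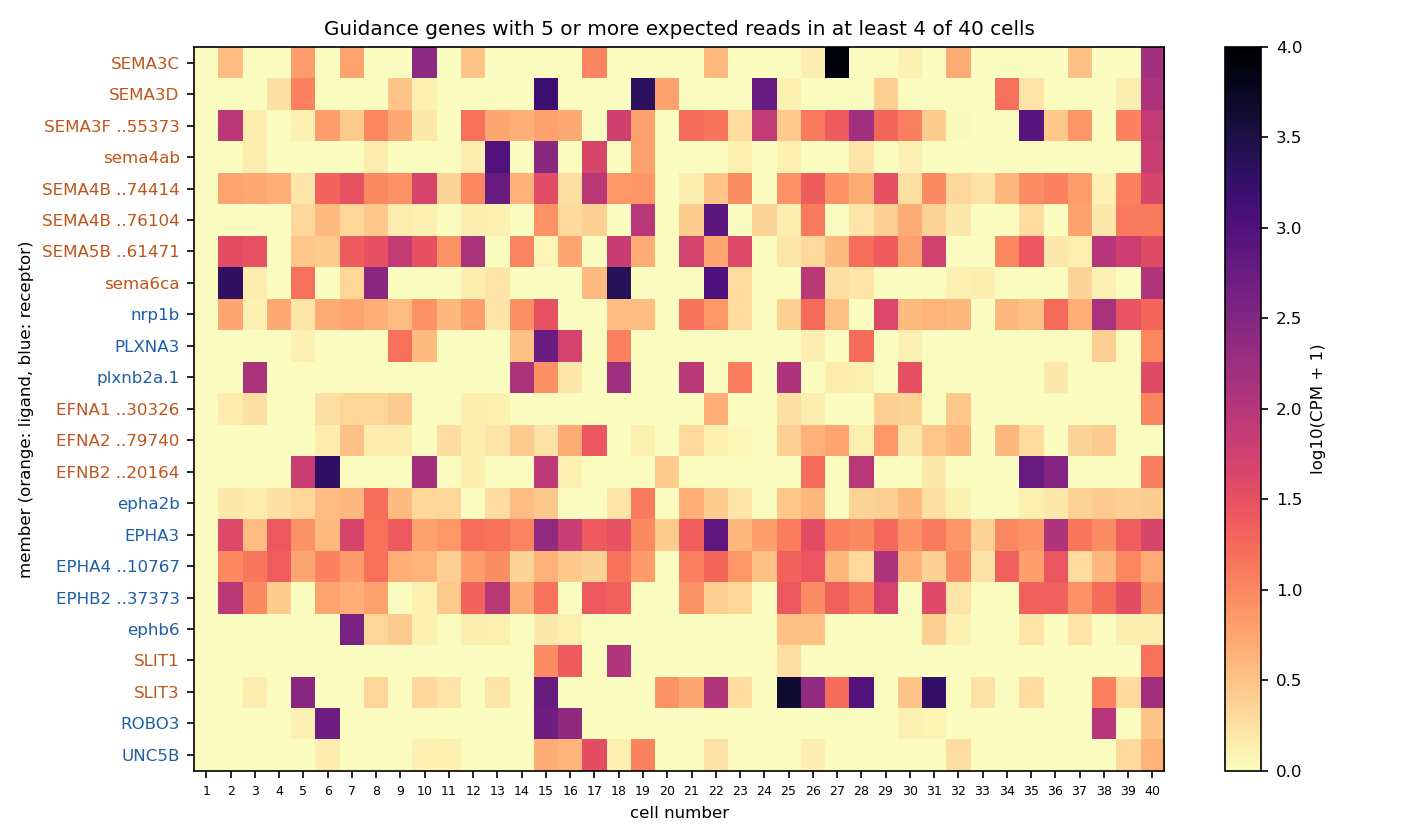
Log10(CPM + 1) of the 23 members detected in at least 4 cells (rows, ligands in orange and receptors in blue) in cells 1 to 40 (columns). EPHA3, EPHA4, nrp1b and SEMA4B fill most columns in light shades, while SEMA3C, SEMA3D, sema6ca, EFNB2 and SLIT3 each show dark squares in some cells. Some of these cells are shared, such as cell 15 for SEMA3D and SLIT3. Cells 1, 20 and 33 have no detected member.

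Pooled over cells, most duplicated members with reads had 1 copy with nearly all of them. Zebrafish keep many gene copies from a genome duplication. Here 19 groups of members share a symbol or differ in the copy letter and, for plxnb2, also in a number suffix. The origin of each copy was not examined. Of the 17 groups with reads, 13 had more than 90% of their expected reads on 1 row. The same share was not computed over other duplicated genes, so this count does not set the members apart. Shares of reads between copies are not corrected for length, and reads of near-identical copies may be divided by estimate. Single cells can carry them: the EFNA1 row with 93.9% of reads was detected in 2 cells and the other in 4, and SEMA3A rests on 35 reads of cell 40. EPHB2 had 99.7% on ENSDARG00000037373, sema6ca 98.4% beside SEMA6C, and EFNB2 95.2% on ENSDARG00000020164. The 4 other groups were SEMA3F, EPHA4, plxnb2 and SEMA4B, which had 49.7% and 50.3% of reads on its 2 rows. Both SEMA4B rows were detected in 9 cells, yet their highest cells were different, as given above.

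Of 7 pairings of ligand and receptor, 1 was detected together in over 50% of cells at 5 reads, and none in over 10% at 50 CPM. A class 3 semaphorin was detected in 30 cells, a neuropilin in 28, and both in 23 of 40 cells (57.5%, 42.2 to 71.5%). At 50 CPM they were found in 11 and 3 cells and together in 0, which allows up to 7.5%. A class A or D plexin was detected in 11 cells and met a class 3 semaphorin in 9. At 50 CPM both were found in 1 cell, cell 15, with SEMA3D and PLXNA3. Semaphorins of classes 4 to 7 were detected in 34 cells, which included all 15 cells with any plexin. Both reached 50 CPM in 4 cells, cells 13, 15, 18 and 21. Ephrin A and EphA genes were both detected in 16 cells, all of the cells with an ephrin A, but an EphA gene was detected in 36 of 40 cells. At 50 CPM both were found in 1 cell, cell 15. Ephrin B genes were detected in 12 cells, EphB genes in 25 and both in 9. At 50 CPM both were found in 0 cells, where 9 cells had the ligand and 6 other cells the receptor. A Slit was detected in 14 cells, a Robo in 6 and both in 5. At 50 CPM a Slit was found in 9 cells and a Robo in 5, and cell 15, with SLIT3 at 549 and ROBO3 at 494 CPM, was the single cell with both. The same cell 15 held the single overlaps at 50 CPM of class 3 semaphorin with plexin and of ephrin A with EphA. It had 4119 detected genes, the most after cell 40, and was not checked for doublets. Whether such overlaps differ from those of unrelated genes was not tested.

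**Figure D4:**
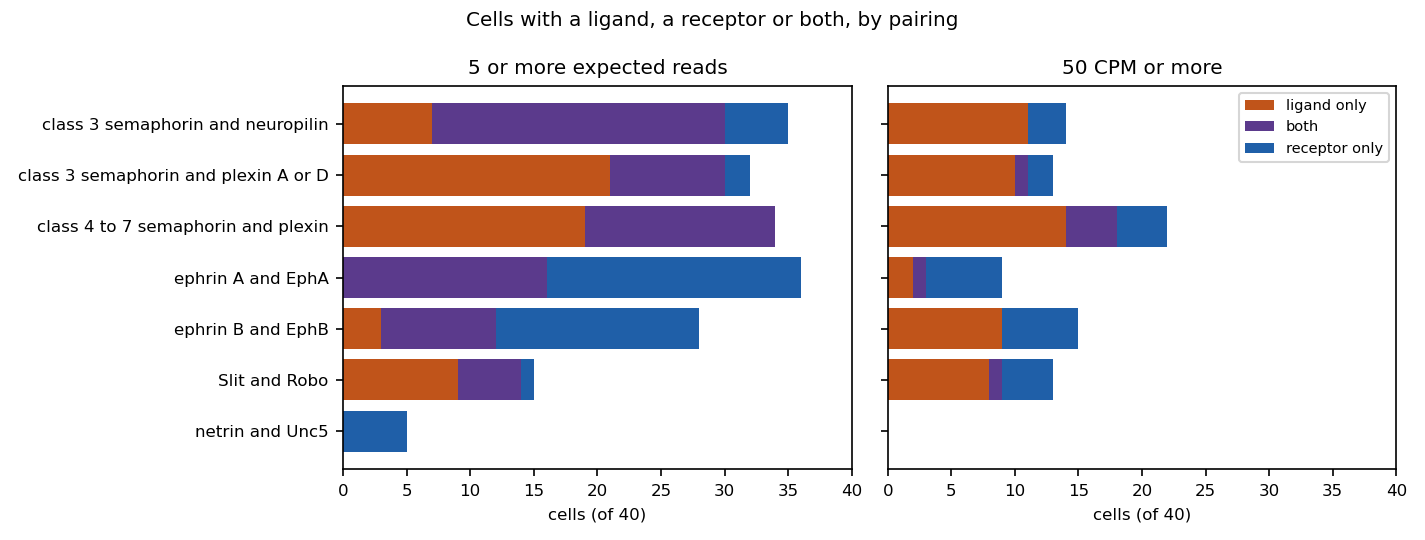
Number of cells (of 40) with the ligand only, both, or the receptor only, for 7 pairings, at 5 or more expected reads (left) and at 50 CPM or more (right). For Slit and Robo, both were detected in 5 cells at 5 reads and in 1 cell at 50 CPM, and for class 3 semaphorin and neuropilin in 23 and 0 cells.

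Cells with more genes detected tended to have more members. A cell had a median of 9.5 detected members, from 0 in cells 1, 20 and 33 to 21 in cell 15 and 41 in cell 40. Across the 40 cells this number and the number of other detected genes had a Pearson r of 0.925 and a Spearman rho of 0.717, and 0.801 and 0.695 without cell 40. In the 25 cells with at least 2000 genes, which include cell 40, they were 0.924 and 0.465. These correlations describe libraries of 1 sample that also differ in depth. At 50 CPM, 31 of 40 cells had at least 1 member, with a median of 2 members per cell and 8 in cells 15 and 40. The member with most reads in a cell differed from cell to cell: 16 different members led in these 31 cells, a count of reads that also depends on transcript length. In cell 25 SLIT3 made up 95.8% of all CPM of the 84 members, in cell 31 93.6%, and in cell 27 SEMA3C 83.4%, while in cell 40 SLIT3, again first, made up 10.8%.

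**Figure D5:**
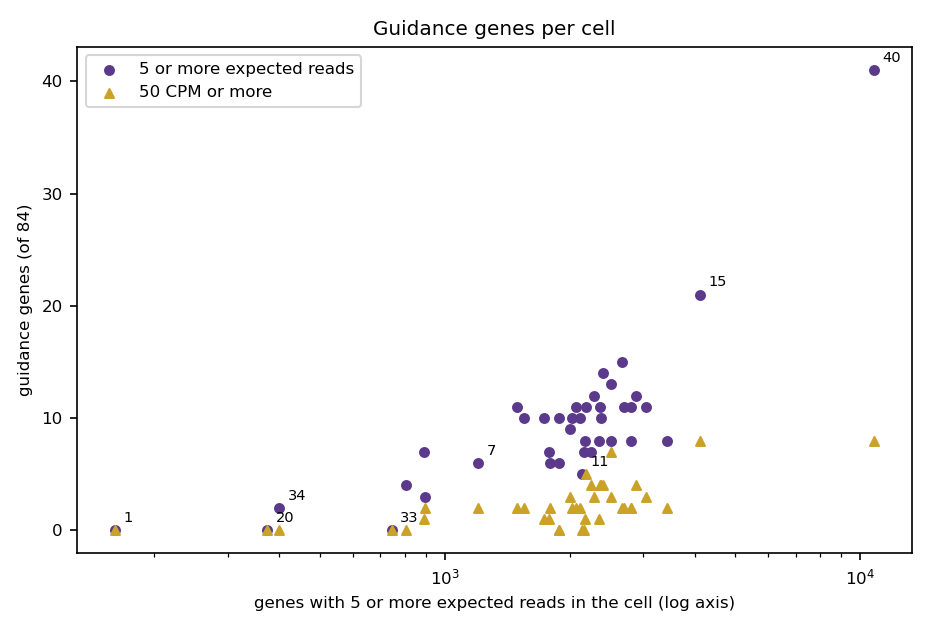
Number of the 84 guidance genes per cell against the number of all genes with 5 or more expected reads (log axis), counted at 5 or more expected reads (circles) and at 50 CPM or more (triangles), with some cells numbered. Cell 40 has 41 members at 5 reads but 8 at 50 CPM, the same as cell 15 with 21 at 5 reads.

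Members rarely varied together in a stable way. Over the 66 pairs of the 12 members detected in 10 or more cells, 10 had a Spearman rho of at least 0.4 across 40 cells and 0 had -0.4 or less. The same counts were not computed over pairs of other genes, so they do not set the members apart. The strongest was SEMA4B (ENSDARG00000074414) with EPHB2 (rho 0.586), at 0.548 with the number of detected genes held constant. It was 0.386 in the 25 cells with at least 2000 genes and 0.353 with median-of-ratios scaling. SEMA4B (ENSDARG00000076104) and nrp1b each stayed above 0.4 with epha2b in these 25 cells, without cell 40 and without cells 7, 11 and 33. Their rho with epha2b was 0.568 and 0.535 in 40 cells, and 0.572 and 0.410 in the 25 cells. These pairs were detected together in 7 and 13 cells. With median-of-ratios scaling they had 0.348 and 0.369, and no pair kept 0.4.

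Genes that act with these families, from a list of 76 co-receptor, processing and effector symbols, were read in the same way. Of 64 matched rows, 20 were detected in at least 10% of cells, beside 5007 of the 21939 genes with a symbol (22.8%). Of the same 64 rows, 12 were detected in no cell, beside 10420 of the 21939 genes with a symbol (47.5%). Among the 15 co-receptor rows 2 passed 10%, NRCAM and PTK7, both in 4 cells, and NEO1, the netrin receptor neogenin, was detected in none. Among the enzymes that cleave ephrins or semaphorins, adam10a was detected in 19 cells, with a median of 1.39 and a highest value of 3980 CPM, and FURIN (ENSDARG00000062909) in 6. Of 45 cytoplasmic effectors 16 passed 10% of cells, beside the same 22.8% of genes with a symbol, and 3 passed 50%, beside 4.4%. These 3 were CFL1, the actin-severing protein cofilin, in 32 cells, RND1 (ENSDARG00000004218), a GTPase that binds plexins, in 26, and CDC42, a GTPase of the cytoskeleton, in 25. In cells 7, 11 and 33, CFL1 had 0, 885 and 0.336 CPM, CDC42 3.57, 2094 and 0.673 CPM, and RND1 2.38, 1.51 and 1.01 CPM. All 3 were low in cells 7 and 33, and in cell 11 CFL1 and CDC42 were high and RND1 was not.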

How the data were processed

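Expected counts per gene were deposited by the authors for 40 cells. Bowtie2, RSEM 1.2.12 and build Zv9 are named per the submitters' processing notes, with settings not given in the sources used here. RSEM estimates how reads of near-identical copies are divided, so rows that share a symbol are uncertain. Symbols came from the supplied gene name table, which covers 21939 of 33737 genes (65.0%), and are printed as given, capitals included. CPM was computed from the deposited counts. Detection meant 5 or more expected reads, and 50 CPM marked a high level. Shares of cells have Wilson 95% intervals and a count of 0 cells the limit of 3 cells. Reads lack molecular identifiers, so both cover the counting of cells only. Python 3.11.15, SciPy 1.17.1 and edgeR 4.0.16 (for TMM factors only) were used, and the steps were tested on simulated data. All 40 cells were kept in the main counts, no doublet caller was run on so few libraries, and no cells were clustered. For description, cells 7, 11 and 33, the cells with high SLIT3 and the 25 cells with at least 2000 genes were set apart by measured values. No 2 cells had identical columns.

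The members and lists were chosen with earlier results of these data known. Named first were members in at least 10 cells, those reaching 500 CPM, the member with most cells in each family, and their copies. Others were named after their values were seen, to account for every member. The planned order of genes per coding length was not run, since no protein or transcript lengths were supplied, and no sequences are printed for the same reason.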

Additional observations from a re-analysis of the deposited data

How the results depend on the processing

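No paired analysis was possible because the labels name 1 group. Members detected in at least 10% of cells numbered 23, from 17 to 34 under the other detection levels, cell sets and thinning to 500000 reads (39 cells), except 9 at 50 CPM. Those in at least 50% of cells numbered 7, but 11 at 1 read, 1 at 20 reads, 0 at 50 CPM and 1 after thinning. Those in no cell numbered 29, or 48 at 50 CPM. At 50 CPM, 12 members were in at least 10% of the 25 cells with 2000 or more genes, and 8 without cell 40, a check added after the data were seen.

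A class 3 semaphorin and a neuropilin shared 57.5% of cells, but 80.0% at 1 read, 20% at 20 reads, 0% at 50 CPM, 72.0% in cells with 2000 or more genes and 10.3% after thinning. Class 3 semaphorin and plexin A or D shared 22.5%, but 42.5% at 1 read and 2.5% at 50 CPM. Classes 4 to 7 and plexins shared 37.5%, but 60.0% and 10.0%. Ephrin A and EphA shared 40%, but 77.5% at 1 read, 12.5% at 20 reads, 2.5% at 50 CPM and 17.9% after thinning. Ephrin B and EphB shared 22.5%, but 0% at 50 CPM, and Slit and Robo 12.5%, but 2.5%. Pairs with rho of at least 0.4 numbered 10, but 5 in cells with 2000 or more genes, 5 without cells 7, 11 and 33, 6 with genes detected held constant and 0 with median-of-ratios scaling. The 5 in cells with 2000 or more genes were not all among the 10. They include SEMA3F (ENSDARG00000055373) with EPHA3, and SEMA4B (ENSDARG00000076104) with nrp1b and with EPHA3. Over 40 cells these had rho of 0.382, 0.357 and 0.346. The other pathway genes in at least 10% of cells numbered 20, but 33 at 1 read and 11 at 50 CPM. The SD between cells exceeds most means and family medians, so a move of less than 1 SD says nothing of their stability. With the 100 highest genes left out of the totals, the mean of EFNA2 (ENSDARG00000079740) was 8.17 CPM in place of 1.71, and that of EPHA4 (ENSDARG00000010767) 30.7 in place of 10.5. The cause was not tested.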
